A study of Mus musculus with 12 samples.

Results

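The genes described here were 10 genes of glycolysis and of the response to low oxygen, chosen by their symbols in the gene name column of the expression table: Hif1a, Slc2a1, Hk2, Pfkfb3, Aldoa, Pgk1, Eno1, Pkm, Ldha and Slc16a3. They are 10 of the 55414 genes in the table. The rule used their symbols and no measured value, but the 10 genes were chosen with earlier results of these data known. All 10 passed the filter on low values, which asked for 1 TPM or more in 6 or more of the 12 libraries and which 15148 genes passed. A second row with the symbol Aldoa (ENSMUSG00000114515) lay between 0 and 0.99 TPM, did not pass and was kept apart. Whole lungs came from 12 mice on a C57BL/6 J background, each instilled with 50 µg of LPS, lipopolysaccharide from the outer membrane of Escherichia coli, to induce acute lung injury (ALI), and taken on day 4. The IL-10 B-KO group held 6 mice, which are Il10 flox/flox and carry Mb1-Cre, a Cre recombinase under the Cd79a promoter that is active in the B lineage. The other 6 were IL-10 B-WT mice, the corresponding controls, whose alleles are not given in the sources used here, nor is the age of either group. Their lungs are called knockout and control lungs below. All lungs had received LPS, so that no value here compares LPS with no LPS.

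Glycolysis splits glucose to pyruvate in the cytosol and yields ATP without oxygen. A transporter admits glucose, a hexokinase traps it as a phosphate, phosphofructokinase commits it to the pathway, and the lower enzymes turn the resulting sugars into pyruvate, which lactate dehydrogenase reduces to lactate for export. The hypoxia-inducible factor HIF-1, of which Hif1a encodes the oxygen-regulated subunit, binds DNA elements with the core RCGTG and is known to raise the transcription of most of these genes. Hif1a protein is held down by hydroxylation when oxygen is plentiful, so that its mRNA is not a measure of its activity. Neutrophils and activated macrophages, the cells that enter a lung exposed to LPS, rely on glycolysis for much of their ATP.

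The upstream sequences of 5 of the genes are printed as examples that hold the HIF core in the 160 bases before a start site. These 5 are a regulator, a transporter, a lower glycolytic enzyme, and both lactate genes. RefSeq lists 17 start windows for the 10 genes on GRCm38.p6, and all 10 genes were matched by symbol. The letters ACGTG and GCGTG were sought on both strands in the 250 bases before each start, where their reverse complements read CACGT and CACGC. The palindrome CACGTG is its own reverse complement and counts once on each strand. ACGTG was found in 11 of the 17 windows and in 9 of the 10 genes, Eno1 being the exception, while 16.6% of all 32851 RefSeq windows and 18.5% of 27025 genes hold it. GCGTG was found in 6 windows and 4 genes (Slc2a1, Pfkfb3, Eno1 and Ldha), beside 28.2% of all windows and 30.9% of genes. Each of the 10 genes held one or the other, as 41.5% of all genes did. The 160 bases before the start follow, 5′ to 3′, in the window richest in ACGTG for each gene, with every match in capitals.
Hif1a, chr12:73907707-73907866, plus strand: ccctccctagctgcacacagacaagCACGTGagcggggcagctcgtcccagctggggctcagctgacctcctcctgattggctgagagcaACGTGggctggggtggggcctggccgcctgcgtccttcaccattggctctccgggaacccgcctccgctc
Slc2a1, chr4:119108585-119108744, plus strand: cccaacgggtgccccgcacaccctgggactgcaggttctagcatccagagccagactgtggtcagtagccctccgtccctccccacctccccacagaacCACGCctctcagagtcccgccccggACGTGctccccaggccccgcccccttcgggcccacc
Pgk1, chrX:106186940-106187099, plus strand: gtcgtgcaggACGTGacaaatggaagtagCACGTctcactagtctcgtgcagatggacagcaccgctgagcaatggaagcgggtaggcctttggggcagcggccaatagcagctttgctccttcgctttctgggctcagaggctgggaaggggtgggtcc
Ldha, chr7:46845644-46845803, plus strand: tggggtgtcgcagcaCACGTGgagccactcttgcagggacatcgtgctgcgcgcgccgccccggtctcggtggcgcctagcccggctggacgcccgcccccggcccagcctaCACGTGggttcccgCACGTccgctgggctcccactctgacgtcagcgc
Slc16a3, chr11:120948907-120949066, plus strand: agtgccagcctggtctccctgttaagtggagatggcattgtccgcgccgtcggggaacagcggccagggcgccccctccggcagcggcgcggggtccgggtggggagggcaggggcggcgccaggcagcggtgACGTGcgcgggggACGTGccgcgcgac
In these 160 bases the Ldha window held 5 matches to ACGTG counted over both strands, the Hif1a window 3, the Pgk1 and Slc16a3 windows 2 each, and the Slc2a1 window 1 beside 1 match to GCGTG. The matches to ACGTG nearest the start began 14 bases before it in Slc16a3, 34 in Ldha, 36 in Slc2a1, 70 in Hif1a and 131 in Pgk1. The Hif1a, Ldha and Slc16a3 windows lie inside the gene bounds given below, before a RefSeq start downstream of the annotated gene start. A match of letters is a description of the reference genome and no measurement of binding in these lungs.

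Both genotypes were measured in 1 table of TPM, a measure of transcript abundance in which reads are divided by gene length and then brought to the same sum in every library. The libraries summed to between 991646 and 994430 TPM, and the number of reads behind a value is unknown. The transcript of the targeted gene, Il10, lay between 0 and 0.88 TPM in control and between 0 and 0.58 TPM in knockout lungs, so that at these low values it did not separate the genotypes. Cd79a, the B cell receptor gene whose promoter drives Mb1-Cre, was at 15.3 TPM or more in each control lung and at 5.73 TPM or less in each knockout lung. Sftpc and the other alveolar type 2 markers were expressed in every library. A pair of libraries stood apart from their groups. Control replicate 1 lay nearer to the median of the knockout lungs than to that of the other control lungs for 72.2% of the genes tested, and knockout replicate 2 lay nearer to the control lungs for 69.3%. The other 10 libraries did so for 29.9% to 51.5% of genes. For all 10 glycolysis and hypoxia genes, both libraries lay nearer to the other genotype, control replicate 1 was the highest of its group, and knockout replicate 2 the lowest of its group. For each of the 10 genes the ratio of means, and each difference in share, is therefore given with both libraries and without them, and the values of other genes with all 12 lungs.

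The mean of each of the 10 genes was higher in knockout than in control lungs, where 63.2% of all genes tested were higher. None of the 10 was a differentially expressed gene (DEG), meaning a limma adjusted p of 0.05 or less and a log2 fold change of 1 or more in either direction, beside 0.495% of all genes tested (75 genes, of which 71 were lower). At an unadjusted limma p up to 0.05, 7 of the 10 were higher, beside 6.83% of all genes tested. A log2 fold change of 1 or more was reached by 6 of the 10, beside 3.52% of all genes. In whole lung, a higher level can come from more cells of a type or more RNA per cell, which cannot be told apart here. The median log2 fold change was 1.05 over the 10 genes and 0.10 over all genes tested. The largest log2 fold change was that of Slc16a3, the lactate exporter, and the smallest that of Pfkfb3, the regulator of phosphofructokinase. For none of the 10 did the genotypes separate without overlap, as they did for 1.02% of all genes tested. The exact permutation test of each gene, two-sided over the 924 ways to divide 12 lungs into 6 and 6, could go down to p = 0.00216. It gave p of at most 0.05 for 4 of the 10, all higher in knockout lungs, beside 5.39% of all genes tested, with no adjustment for the number of tests.

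**Figure D1:**
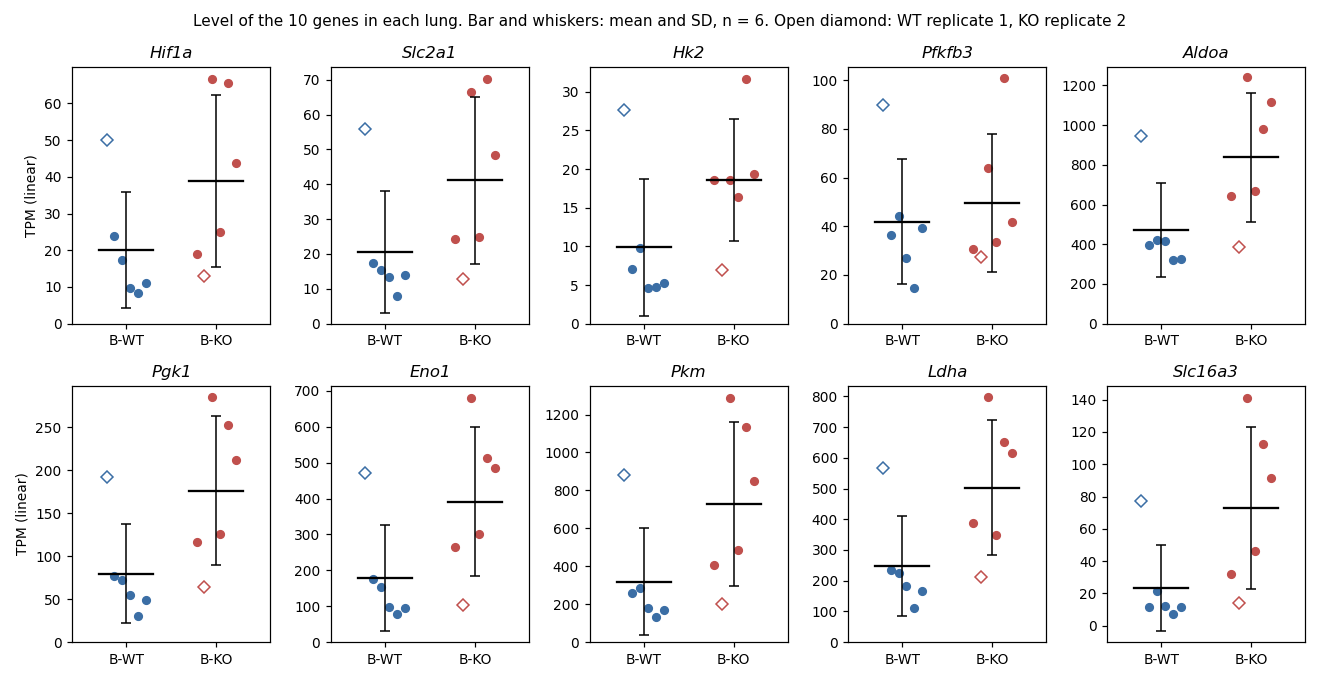
TPM of each of the 10 genes in each lung (y axis, linear) for control (B-WT, blue) and knockout (B-KO, red) lungs, with the mean as a bar and the SD as whiskers (n = 6). The open diamonds, control replicate 1 and knockout replicate 2, are the highest and the lowest of their groups for all 10 genes.

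Hif1a (ENSMUSG00000021109, chromosome 12, 73901375 to 73947530, plus strand) is the regulator of the set. It lay between 8.24 and 50.1 TPM in control lungs, with a median of 14.2, and between 12.96 and 66.6 TPM in knockout lungs, with a median of 34.4. The lungs with most Hif1a were knockout replicates 3 and 5 (66.6 and 65.6 TPM), and the 50.1 TPM of control replicate 1 came next, so that the groups overlapped. The fitted log2 fold change was 0.95 ± 0.48 (SE, n = 6), with a limma adjusted p of 0.433. The ratio of the knockout to the control mean was 1.93 with all lungs and 3.13 without the 2 libraries that stood apart. Epas1, which encodes the HIF-2 alpha subunit and is a gene of the endothelium, was the more abundant alpha subunit in every lung, at 641 ± 213 TPM (SD, n = 6) in control and 442 ± 181 TPM in knockout lungs (log2 fold change -0.53, limma adjusted p = 0.473). Hif3a, the third alpha subunit, stayed at or below 2.87 TPM. Hif1a took 4.29% ± 5.61 of the summed TPM of the 3 alpha subunits in control and 9.11% ± 6.24 in knockout lungs (exact permutation test, p = 0.182). The difference was 4.82 percentage points with all lungs. With 1 lung left out at a time, it ran from 3.02 without knockout replicate 5 (exact permutation test, p = 0.379) to 7.07 without control replicate 1, which was at 15.5% (exact permutation test, p = 0.0260). Without both libraries it was 8.57.

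Slc2a1 (ENSMUSG00000028645, chromosome 4, 119108711 to 119137983, plus strand) encodes GLUT1, the basal glucose transporter. It was at 55.8 TPM in control replicate 1 and between 8.09 and 17.6 TPM in the other 5 control lungs. In knockout lungs it was at 12.8 TPM in replicate 2 and between 24.2 and 70.2 TPM in the other 5. Each of those 5 thus lay above each of the 5 control lungs other than replicate 1. Between genotypes the log2 fold change was 1.00 ± 0.47 (SE, n = 6; limma adjusted p = 0.402), and the ratio of means was 1.99 with all lungs and 3.42 without both libraries. Slc2a3, which encodes the high-affinity glucose transporter GLUT3, lay between 3.54 and 12.0 TPM, with a log2 fold change of 0.50 ± 0.21 (limma adjusted p = 0.359). Slc2a1 held 75.4% ± 8.07 of the TPM of these 2 transporters in control and 81.1% ± 7.60 in knockout lungs (exact permutation test, p = 0.234). The difference was 5.65 percentage points with all lungs. With 1 lung left out, it ran from 3.94 without knockout replicate 3 (exact permutation test, p = 0.411) to 8.80 without control replicate 1, which held the highest share of the 12, 91.2% (exact permutation test, p = 0.0433). It was 11.6 without both libraries.

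Hk2 (ENSMUSG00000000628, chromosome 6, 82725025 to 82774454, minus strand) encodes the inducible hexokinase, and was the least abundant of the 10 genes in both genotypes. It lay between 4.68 and 27.6 TPM in control lungs (median 6.14) and between 6.99 and 31.6 TPM in knockout lungs (median 18.6). Apart from replicate 2, the knockout lungs were at 16.4 TPM or more, and apart from replicate 1 the control lungs were at 9.83 TPM or less. On the log2 scale the difference was 1.02 ± 0.41 (SE, n = 6; limma adjusted p = 0.350). The ratio of means was 1.88 with all lungs and 3.31 without both libraries. The other hexokinases were Hk1, the housekeeping form, at 33.4 ± 12.1 and 48.0 ± 18.9 TPM (SD, n = 6) in control and knockout lungs, and Hk3, a form of myeloid cells, at 22.4 ± 40.4 and 38.0 ± 25.3 TPM. The Hk3 mean of the control lungs rested on the 104 TPM of replicate 1, the highest of the 12. Hk2 made up 15.1% ± 1.46 of the 3 hexokinases in control and 18.1% ± 2.41 in knockout lungs, with 2 knockout lungs above every control lung (exact permutation test, p = 0.0260). This p was 0.0584 without control replicate 1, 5 or 6 and 0.0606 without control replicate 4, with differences between 2.66 and 2.90 points. With all lungs the difference was 2.98 points. With 1 lung left out, it ran from 2.16 without knockout replicate 1 (exact permutation test, p = 0.0390) to 3.42 without control replicate 2 (exact permutation test, p = 0.0130). It was 3.12 without both libraries.

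Pfkfb3 (ENSMUSG00000026773, chromosome 2, 11471433 to 11554077, minus strand) encodes the kinase that makes the strongest activator of phosphofructokinase. It lay between 14.8 and 90.0 TPM in control lungs (median 37.7) and between 27.5 and 101 TPM in knockout lungs (median 37.6). The medians were nearly equal, and only knockout replicate 5 lay above every control lung. The log2 fold change was 0.28 ± 0.40 (SE, n = 6; limma adjusted p = 0.765), with a 95% interval from -0.58 to 1.14. The ratio of means was 1.19 with all lungs and 1.68 without both libraries, the smallest of the 10 genes either way. Pfkfb4, the related isozyme, was at 19.4 ± 9.5 TPM in control and 29.6 ± 5.18 TPM in knockout lungs (SD, n = 6; log2 fold change 0.73, limma adjusted p = 0.375), and Pfkfb1 and Pfkfb2 stayed at or below 6.92 TPM. The share of Pfkfb3 among the 4 isozymes was the one share of the 7 examined with a lower mean in knockout lungs, at 54.4% ± 8.82 against 61.4% ± 5.06 (exact permutation test, p = 0.126). The difference of -7.01 points became -3.64 without both libraries. With 1 lung left out, it ran from -9.91 without knockout replicate 5, whose share was 68.9% (exact permutation test, p = 0.0195), to -5.21 without knockout replicate 2 (exact permutation test, p = 0.236).

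Aldoa (ENSMUSG00000030695, chromosome 7, 126795234 to 126800751, minus strand) encodes the main aldolase, which splits the 6-carbon sugar, and was the most abundant of the 10 genes on the length-scaled TPM. In control lungs it was at 947 TPM in replicate 1 and between 319 and 422 TPM in the other 5. In knockout lungs it was at 387 TPM in replicate 2 and between 645 and 1240 TPM in the other 5. The fitted log2 fold change was 0.84 ± 0.32 (SE, n = 6), with a limma adjusted p of 0.336 and an exact permutation p of 0.0411. The ratio of means was 1.78 with all lungs and 2.47 without both libraries. Aldoc, the aldolase of the brain, was at 4.68 ± 3.31 TPM in control and 6.07 ± 1.99 TPM in knockout lungs (SD, n = 6; log2 fold change 0.46, limma adjusted p = 0.567).

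Pgk1 (ENSMUSG00000062070, chromosome X, 106187100 to 106203699, plus strand) encodes phosphoglycerate kinase, the first ATP-yielding step. Control replicates 1 to 6 were at 192, 77.0, 72.2, 55.4, 30.5 and 48.8 TPM. Knockout replicates 1 to 6 were at 117, 64.7, 285, 126, 253 and 212 TPM. The knockout lungs other than replicate 2 lay above the control lungs other than replicate 1 without overlap. Between genotypes the log2 fold change was 1.21 ± 0.43 (SE, n = 6), with a limma adjusted p of 0.315, the smallest of the 10 genes, and an exact permutation p of 0.0390. The ratio of means was 2.22 with all lungs and 3.49 without both libraries.

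Eno1 (ENSMUSG00000063524, chromosome 4, 150236721 to 150248879, plus strand) encodes the broadly used enolase. It lay between 78.8 and 470 TPM in control lungs (median 126) and between 103 and 681 TPM in knockout lungs (median 393). On the log2 scale the difference was 1.20 ± 0.49 (SE, n = 6; limma adjusted p = 0.353), and the ratio of means was 2.19 with all lungs and 3.73 without both libraries. Eno3, the muscle enolase, was the other way round, at 19.2 ± 3.48 TPM in control and 13.1 ± 4.77 TPM in knockout lungs (SD, n = 6; log2 fold change -0.56, limma adjusted p = 0.334). Eno1 made up 85.0% ± 7.52 of the 3 enolases in control and 94.0% ± 4.87 in knockout lungs, with 3 knockout lungs above every control lung (exact permutation test, p = 0.0455). Leaving out any 1 of control replicates 3 to 6 or knockout replicates 1 and 3 to 6 moved this p to between 0.0519 and 0.0823, with a difference of 7.55 to 9.72 points, against 9.01 with all lungs and 12.9 without both libraries.

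Pkm (ENSMUSG00000032294, chromosome 9, 59656368 to 59679375, plus strand) encodes the pyruvate kinase of most tissues, whose M1 and M2 forms are not told apart in a table by gene. It lay between 130 and 881 TPM in control lungs (median 219) and between 204 and 1288 TPM in knockout lungs (median 669). Both knockout replicates 3 and 5 lay above each control lung. The log2 fold change was 1.26 ± 0.51 (SE, n = 6; limma adjusted p = 0.350), and the ratio of means was 2.29 with all lungs and 4.06 without both libraries.

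Near-identical copies took little of the reads assigned to these enzymes. Eno1b, which shares most of its sequence with Eno1, stayed at or below 0.52 TPM, and Pgk1-rs7 was above 0 in 1 lung only, at 0.43 TPM. Aldoart1, Aldoart2 and Pgk2 were listed at 0 in all 12 libraries. Reads that match a gene and a copy equally well may still have been divided between them.

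Ldha (ENSMUSG00000063229, chromosome 7, 46841475 to 46855627, plus strand) encodes the lactate dehydrogenase subunit that favours lactate formation. Control replicates 1 to 6 were at 567, 234, 227, 184, 111 and 165 TPM. Knockout replicates 1 to 6 were at 387, 213, 798, 350, 650 and 617 TPM. Of the 6 knockout lungs, 3 lay above each control lung. The fitted log2 fold change was 1.08 ± 0.39 (SE, n = 6), with a limma adjusted p of 0.321 and an exact permutation p of 0.0346, the smallest of the 10 genes. The ratio of means was 2.03 with all lungs and 3.04 without both libraries. Ldhb, the subunit that favours pyruvate, was at 141 ± 59.2 TPM in control and 125 ± 82.4 TPM in knockout lungs (SD, n = 6; log2 fold change -0.26, limma adjusted p = 0.779). The share of Ldha in the sum of both was 61.2% ± 14.5 in control and 77.6% ± 18.3 in knockout lungs (exact permutation test, p = 0.108). It was at 43.2% in knockout replicate 2, the lowest of the 12, and between 72.5% and 91.1% in the other 5 knockout lungs. The difference of 16.4 points became 23.3 without that lung (exact permutation test, p = 0.0152) and 21.2 without control replicate 1 (p = 0.0476, exact permutation test). It was 13.1 without control replicate 4 (exact permutation test, p = 0.208), the smallest with 1 lung left out, and 28.1 without both libraries.

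Slc16a3 (ENSMUSG00000025161, chromosome 11, 120948480 to 120960868, plus strand) encodes MCT4, the low-affinity transporter that exports lactate from highly glycolytic cells. Control replicates 1 to 6 were at 76.9, 11.8, 21.7, 12.0, 7.11 and 11.7 TPM. Knockout replicates 1 to 6 were at 31.9, 13.9, 141, 46.3, 112 and 91.4 TPM. Its spread was the widest of the 10 genes, with a 10.8-fold range within control and a 10.2-fold range within knockout lungs. Between genotypes the log2 fold change was 1.69 ± 0.60 (SE, n = 6), with a limma adjusted p of 0.320 and an exact permutation p of 0.0368. The ratio of means, the largest of the 10 genes, was 3.10 with all lungs and 6.59 without both libraries. Slc16a1, which encodes MCT1, was at 4.88 ± 4.02 TPM in control and 11.3 ± 7.85 TPM in knockout lungs (SD, n = 6; log2 fold change 1.03, limma adjusted p = 0.361). Slc16a3 took 80.0% ± 6.03 of the TPM of both transporters in control and 84.6% ± 7.31 in knockout lungs (exact permutation test, p = 0.260). The difference was 4.58 points with all lungs and 8.09 without both libraries. With 1 lung left out, it ran from 2.57 without control replicate 2 (exact permutation test, p = 0.504) to 6.95 without knockout replicate 2 (exact permutation test, p = 0.0649).

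**Figure D2:**
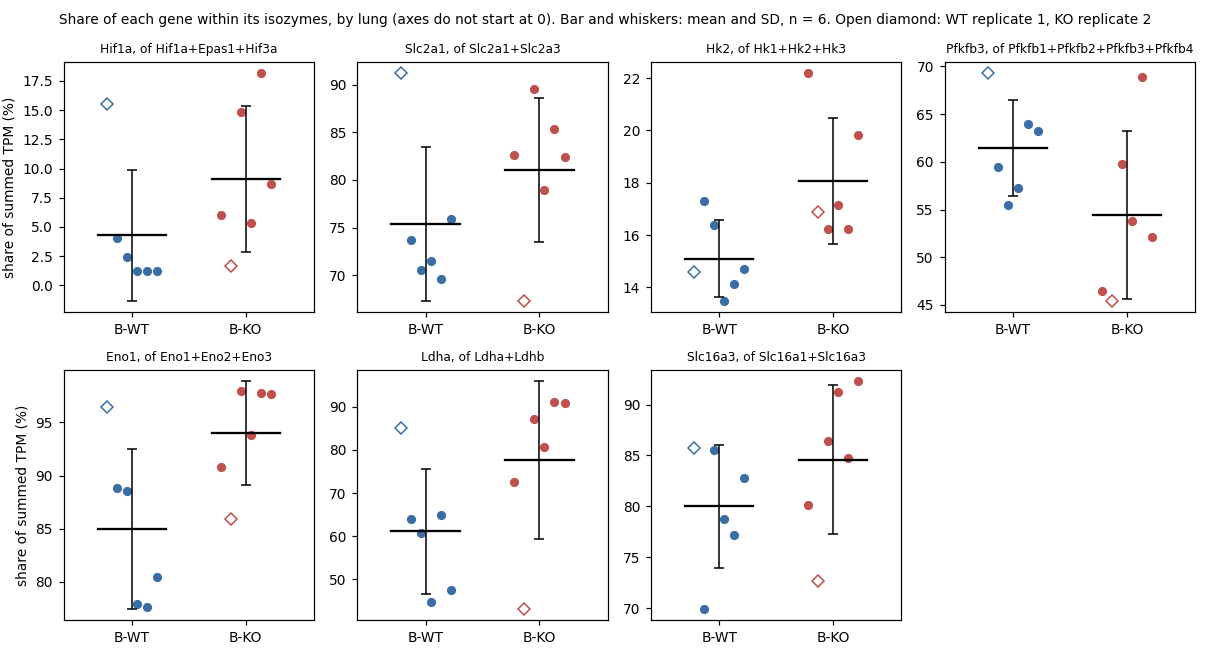
Share (y axis, % of summed TPM; axes do not start at 0) that each of 7 genes took among the isozymes named above its panel, by lung and genotype, with the mean as a bar and the SD as whiskers (n = 6). The means were higher in knockout lungs in 6 of 7 panels, Pfkfb3 being the exception, and the groups overlapped in all 7.

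The 7 shares compare genes within a library and so do not depend on the total to which its TPM are scaled. Their p-values are not adjusted for 7 tests. The order of the 10 genes by mean TPM over the 12 lungs was Aldoa, Pkm, Ldha, Eno1, Pgk1, Slc16a3, Pfkfb3, Slc2a1, Hif1a and Hk2. Ldha lay above Eno1, Eno1 above Pgk1, Pgk1 above Slc16a3, and Hif1a above Hk2 in all 12 lungs. Aldoa lay above Pkm and Pkm above Ldha in 10 of 12 lungs each, and Slc2a1 above Hif1a in 6 of 12, so that these last 2 had no settled order. The order of Slc16a3 and Pfkfb3 differed between genotypes: Pfkfb3 was the higher in all 6 control lungs and Slc16a3 in 5 of 6 knockout lungs.

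Without control replicate 1 and knockout replicate 2, 9 of the 10 genes were DEGs by limma, all but Pfkfb3 (log2 fold change 0.67, limma adjusted p = 0.220), beside 7.07% of the 14762 genes then tested that were DEGs with the higher level in knockout lungs. Their log2 fold changes lay between 1.26 (Aldoa) and 2.51 (Slc16a3), and 8 of the 10 genes no longer overlapped between genotypes, Hif1a and Pfkfb3 being the exceptions, beside 9.1% of all genes then tested whose knockout lungs all lay higher. Without control replicate 1 alone, 6 of the 10 were DEGs (Hk2, Aldoa, Pgk1, Pkm, Ldha and Slc16a3, with limma adjusted p from 0.0370 to 0.0497), beside 2.3% of the 14943 genes tested. Without knockout replicate 2 alone, none was by limma, with 9 of the 10 higher at an unadjusted p up to 0.05, beside 11.2% of the 14998 genes tested. With all 12 lungs and a limma weight for each library, Pgk1 (limma adjusted p = 0.0475) and Ldha (0.0485) were DEGs, beside 0.535% of all genes tested that were DEGs with the higher level in knockout lungs. Both libraries were singled out by where they lay in these data, so that the values without them describe the other 10 lungs and are no independent test. In the transcripts of B cells, control replicate 1 had 15.3 TPM of Cd79a and knockout replicate 2 had 4.35 TPM, each on the side of its own genotype.

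**Figure D3:**
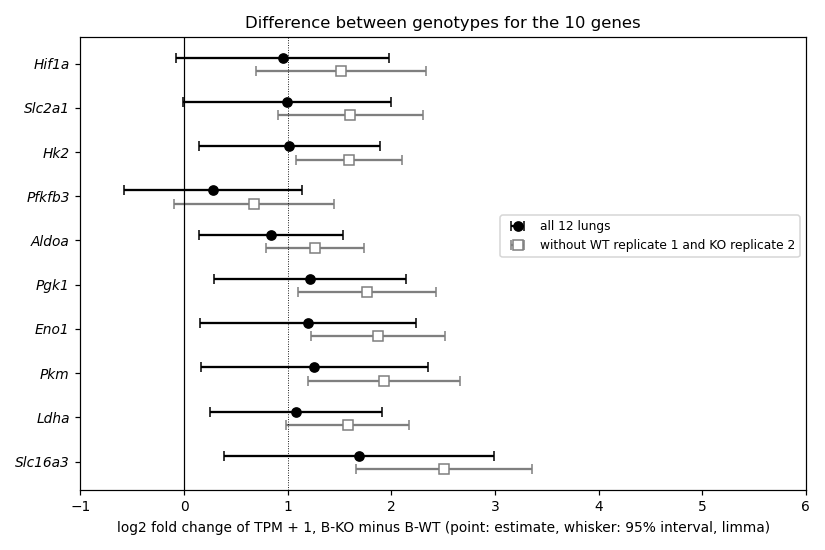
Log2 fold change of TPM + 1 (x axis, knockout minus control) with its 95% interval from limma for each of the 10 genes, with all 12 lungs (filled) and without control replicate 1 and knockout replicate 2 (open squares). All 10 points lie above 0 in both, and the interval of Pfkfb3 spans 0 in both.

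The rest of the pathway was read from a list of 38 other glycolysis genes, of which 36 were tested. None was a DEG by limma. At an unadjusted limma p up to 0.05, 9 were higher and 3 lower in knockout lungs, beside 6.83% and 5.71% of all genes tested. Their median log2 fold change was 0.33, with 29 genes higher and 7 lower, where 63.2% of all genes tested were higher. Tpi1, the triose phosphate isomerase, had a log2 fold change of 1.22 ± 0.42 (SE, n = 6; limma adjusted p = 0.298), Pgam1, the phosphoglycerate mutase, 1.05 ± 0.40 (0.330), and Pfkl, a phosphofructokinase subunit, 1.09 ± 0.43 (0.350). Gpi1, the glucose phosphate isomerase, followed with 0.59 ± 0.22 (limma adjusted p = 0.328). Ldhd, which oxidises the D form of lactate, differed by only 0.34 ± 0.13 (limma adjusted p = 0.342), but its lungs did not overlap: control lungs lay between 1.87 and 2.50 TPM and knockout lungs between 2.56 and 3.60 TPM, a separation that 1.02% of all genes tested showed.

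The lower genes of smallest p were Pdk2, a kinase that switches off pyruvate dehydrogenase (log2 fold change -0.55 ± 0.20, limma adjusted p = 0.321), Eno3 (given above), and Slc2a4, which encodes the insulin-regulated transporter GLUT4 (-0.89 ± 0.41, limma adjusted p = 0.382). Bpgm, which makes the bisphosphoglycerate of red cells, did not reach that p, at 66.6 ± 40.2 TPM in control and 36.9 ± 13.4 TPM in knockout lungs (SD, n = 6; log2 fold change -0.72, limma adjusted p = 0.441). Pfkm, the muscle phosphofructokinase, had a log2 fold change of -0.16 ± 0.16 (limma adjusted p = 0.655). All tested muscle and red cell markers also had a lower mean log2 level in knockout lungs, with 1 skeletal and 1 cardiac gene at an unadjusted limma p up to 0.05 and no erythroid gene. The 6 cardiac muscle markers summed to 68.4 to 1459 TPM in control and 26.0 to 423 TPM in knockout lungs. The 6 skeletal muscle markers, of which 3 were tested, summed to 5.83 to 61.9 TPM and 7.71 to 15.4 TPM. The 6 erythroid markers summed to 2958 to 96329 TPM and 3523 to 22585 TPM. Their part in these values was not tested.

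A list of 39 other HIF pathway genes, of which 37 were tested, also held no DEG by limma. At an unadjusted limma p up to 0.05, 8 were higher and none lower in knockout lungs, beside 6.83% and 5.71% of all genes tested. Over the 37 genes the median was 0.35 on the log2 scale, and 31 were higher against 6 lower, where 63.2% of all genes tested were higher. All 8 were among the 28 tested target genes. Of the 9 tested genes of the HIF system itself (subunits, hydroxylases and their partners), none had an unadjusted p up to 0.05. The largest difference was that of Hmox1, the heme oxygenase that several stress pathways besides HIF induce, at 85.0 ± 135 TPM in control and 312 ± 240 TPM in knockout lungs (SD, n = 6; log2 fold change 2.36 ± 0.80 SE, limma adjusted p = 0.298). Ankrd37, an ankyrin repeat gene, had a log2 fold change of 1.95 ± 0.68 (limma adjusted p = 0.304), and Mif, a cytokine gene of macrophages and many other cells, 1.21 ± 0.43 (0.312). Car9, a carbonic anhydrase gene often taken as a sign of hypoxia, stayed at or below 2.99 TPM (log2 fold change 0.58 ± 0.21, limma adjusted p = 0.325). Tfrc, the transferrin receptor, had a log2 fold change of 0.77 ± 0.29 (limma adjusted p = 0.333).

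Some well-known hypoxia genes were among the 6 HIF pathway genes with a lower mean log2 level in knockout lungs with all 12 lungs. The other 31 tested were higher. Vegfa, the growth factor of vessels, was at 453 ± 185 TPM in control and 370 ± 70.4 TPM in knockout lungs (SD, n = 6; log2 fold change -0.17 with a 95% interval from -0.84 to 0.50, limma adjusted p = 0.822). Hilpda, a lipid droplet gene, was at 130.5 ± 60.4 and 114 ± 34.6 TPM. Vldlr, a lipoprotein receptor gene, and Zfp395 had log2 fold changes of -0.07 and -0.15. With both libraries left out, 33 of the 37 HIF pathway genes and 29 of the 36 glycolysis genes were higher. The median log2 fold changes were then 0.574 and 0.407, beside 0.175 over all genes tested. Of the higher genes, 19 and 18 reached an unadjusted limma p up to 0.05, beside 21.8% of all genes then tested. At that p, 2 HIF pathway and 4 glycolysis genes were lower, beside 9.09%.

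**Figure D4:**
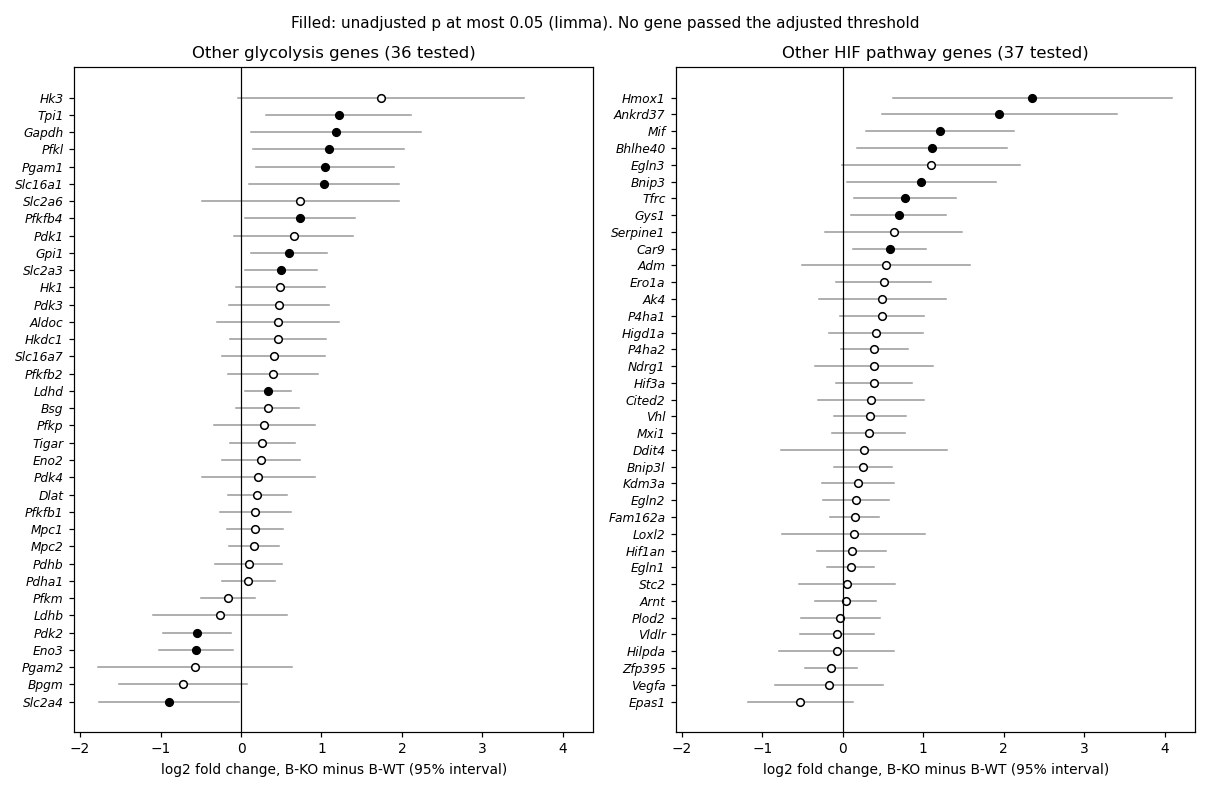
Log2 fold change of TPM + 1 (x axis, knockout minus control, with 95% intervals from limma) of 36 other glycolysis genes and 37 other HIF pathway genes, in order of size. Filled points have an unadjusted p up to 0.05, which 12 glycolysis genes (9 higher, 3 lower) and 8 HIF pathway genes (all higher) reached.

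The markers of neutrophils and of monocytes and macrophages were highest and lowest in several of the same lungs as the 10 genes. The 14 neutrophil markers summed to between 449 and 6300 TPM in control lungs (median 1270) and between 1353 and 13843 TPM in knockout lungs (median 6201). All 14 had a higher mean in knockout lungs, 11 of them at an unadjusted limma p up to 0.05. Over all genes tested, 63.2% were higher, and 6.83% were higher at that p. The 12 monocyte and macrophage markers summed to 168 to 2665 TPM and 580 to 3966 TPM, with all 12 higher and 8 at that p. No neutrophil or macrophage marker was at 0 in any library. The highest neutrophil sum of the control lungs was that of replicate 1 (6300 TPM), and the lowest of the knockout lungs that of replicate 2 (1353 TPM), the same libraries as for the 10 genes. Control replicate 5, the lowest of the 12 lungs for 9 of the 10 genes, also had the lowest neutrophil sum (449 TPM), the highest erythroid sum (96329 TPM) and the largest share of mitochondrially encoded transcripts, 30.5% of its TPM where the other lungs had 4.63% to 15.8%. When TPM were rescaled without mitochondrially encoded genes, the median log2 fold change of the 10 genes was 1.01, where it was 1.05 before. Of the 10, 8 were then higher at an unadjusted limma p up to 0.05, beside 1323 of 15357 genes tested, and none was a DEG. The part of these cells and of other traits of that lung in the differences was not tested.

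Other marker lists did not all follow. Over all genes tested, 6.83% were higher and 5.71% lower at an unadjusted limma p up to 0.05. The 6 cell cycle markers were all higher on average in knockout lungs (median log2 fold change 1.02), 2 of them at an unadjusted limma p up to 0.05. They summed to 13.6 to 225 TPM in control lungs, highest in replicate 1, and to 61.7 to 191 TPM in knockout lungs, lowest in replicate 2. The 6 endothelial markers were all lower on average in knockout lungs, 1 of them at an unadjusted limma p up to 0.05, and their sum was lowest in control replicate 1. The 8 T and NK cell markers had no gene at that p (54.0 to 192 TPM in control and 53.8 to 287 TPM in knockout lungs). Their sum was lowest in knockout replicate 3 (53.8 TPM), the highest lung for 7 of the 10 genes. It was nearly as low in control replicate 5 (54.0 TPM), the lowest lung for 9 of the 10. The 6 B cell markers summed to 61.3 TPM or more in control lungs, and in knockout lungs to 65.8 TPM in replicate 2, 39.9 TPM in replicate 6, and 6.91 TPM or less in the other 4, with all 6 genes lower at that p. The 6 alveolar type 2 markers were all higher on average in knockout lungs, 4 of them at that p (3290 to 17072 TPM in control and 11459 to 20832 TPM in knockout lungs). The 6 alveolar type 1 markers (1431 to 3970 and 2024 to 3194 TPM) and the 6 fibroblast markers (197 to 1143 and 116 to 1577 TPM) had no gene at that p. Cd79a was the one DEG among the marker genes examined.

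**Figure D5:**
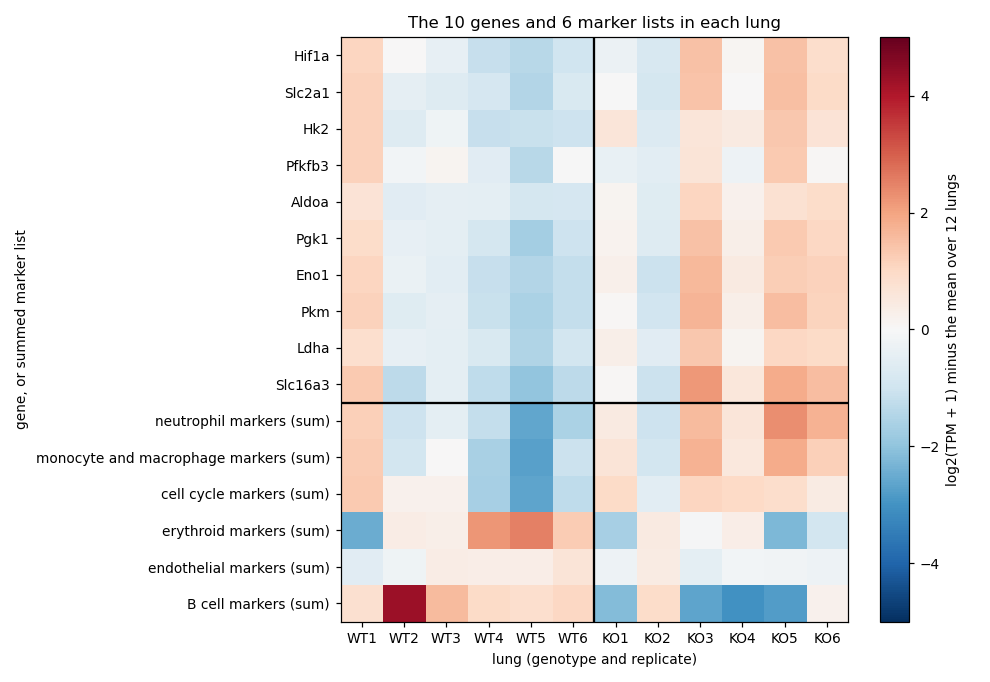
Log2(TPM + 1) minus its mean over the 12 lungs (colour) for the 10 genes and for 6 summed marker lists (rows) in each lung (columns, WT1 to WT6 for control replicates 1 to 6 and KO1 to KO6 for knockout replicates). WT1 is high and KO2 low for the 10 genes as well as for the neutrophil and the monocyte and macrophage sums.

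Within genotypes the 10 genes moved together to different degrees. Pearson's r was taken on log2(TPM + 1) minus the genotype mean over the 12 lungs, against 15147 other genes, as a description in which all points share their libraries. The lungs include control replicate 1 and knockout replicate 2, the extremes of their groups for all 10 genes, and r was not taken without them. Pgk1 and Ldha were each other's nearest gene of all (r = 0.995). The genes nearest to Aldoa were Tpi1 (r = 0.993), Pgam1 (0.987) and Pfkl (0.976), all enzymes of glycolysis. Gapdh, a further glycolytic enzyme, was the second nearest to Eno1 (r = 0.993, after Diaph2 and before Naip2) and to Pkm (0.994, after Vsir and before Fmn1), and the third nearest to Pgk1 after Ldha and Cd302. For Slc16a3 the nearest were Itgam (r = 0.991), an integrin of myeloid cells, Trem1 (0.989), a receptor of neutrophils and monocytes, and Pygl (0.988), a glycogen phosphorylase. For Ldha, Lrg1 and Slc16a10 followed Pgk1.

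For Hif1a the nearest were Gm7336, Fmn1 and Capza2 (r = 0.984 to 0.988), and for Slc2a1 they were Slc16a10, Cyp7b1 and Picalm (0.986 to 0.990). For Hk2 they were Gpr31b (r = 0.992), Rhog (0.986) and Ass1 (0.983), and for Pfkfb3 Gna13 (0.986), Ppp4r1 (0.982) and Galnt1 (0.979). Among the 100 genes nearest to each, Slc2a1, Eno1 and Pkm had 7 of the 9 other genes of the set, Aldoa, Pgk1, Ldha and Slc16a3 had 6, and Hif1a had 5. Hk2 and Pfkfb3 had none: the nearest of the set to Hk2 was Pkm (r = 0.903, ranked 511) and to Pfkfb3 Slc2a1 (r = 0.908, ranked 513).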

How the data were processed

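Whole-lung RNA from 12 mice (6 IL-10 B-WT, 6 IL-10 B-KO, grouped by the genotype in the labels) was measured. The authors deposited TPM, which RSEM had estimated for each gene. Lungs were not pooled, each has its own column, and values carry 2 decimals. Per the submitters' processing notes, fastp and HISAT were also used, with the build GRCm38.p5; versions and annotation release are not given in the sources used here. No pair of libraries was identical. TPM keep no depth, so that neither a counting interval nor a floor is given, no count model was fitted, and the precision rests on the spread between 6 lungs.

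Here, limma 3.58.1 in R 4.3.3 (lmFit, eBayes with a trend) was run on log2(TPM + 1) over the 15148 genes that reached 1 TPM in 6 or more libraries, with genotype as the only term and Benjamini-Hochberg adjustment over all of them, and was tested on simulated data. Log2 fold changes on this scale understate those of low genes. The study names several tools for its DEGs, and of these limma fits TPM; its threshold of 1 was read as an absolute log2 fold change. Single genes and shares were compared by two-sided exact permutation tests. One planned isozyme share is not reported here. The 10 genes, the other gene lists and the markers were chosen with earlier results of these data known. Genes named beyond the 10 were their isozymes, near-identical copies, the 5 higher and 5 lower genes of smallest p of each list, and the 3 nearest by Pearson's r. One listed gene was matched by its gene ID under a newer symbol. Coordinates came from GENCODE M21 (GRCm38; 52081 of 55414 IDs matched) and upstream sequences from RefSeq (GRCm38.p6). Alternatives were other filters, a pseudocount of 0.1, 4 other scalings, library weights, no trend, a replicate block, copies summed, and libraries left out. The shares and permutation tests were computed in Python 3.11.15 (SciPy 1.17.1, pandas 2.3.3, NumPy 2.4.6), and figures were drawn with matplotlib 3.10.9.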

Additional observations from a re-analysis of the deposited data

Results flagged for a closer look

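Groups of 6 lungs were searched for a lung that stood far from the other 5 of its genotype by Dixon's test, over the 10 genes and 7 shares in both genotypes. Of the 34 groups tested, 3 held such a lung, where chance flags about 1 in 20 groups. In all 3 it was control replicate 1, as the highest. Its Aldoa level was 9.888 on the log2(TPM + 1) scale (947 TPM, where the other control lungs were at 422 TPM or less). Its share of Hif1a among the HIF alpha subunits was 15.52%, where the next control lung was at 4.06%. Its share of Slc2a1 in the sum of Slc2a1 and Slc2a3 was 91.2%, where the next was at 75.9%.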

How the results depend on the processing

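The 10 genes had a higher mean in knockout lungs under every alternative run, and the median of their log2 fold changes stayed between 0.89 and 1.6. What depended on the lungs was the count of calls. Leaving out 1 lung at a time gave 0 to 6 DEGs among the 10 genes, 4 to 9 of them at an unadjusted p up to 0.05, 15 to 576 DEGs over all genes, and 5 to 21 other glycolysis and 5 to 17 other HIF pathway genes at that p. The highest counts came without control replicate 1, except for the 17 HIF pathway genes without knockout replicate 2, and the 9 of the 10 genes were also reached without knockout replicate 1 or 2. The count at an unadjusted p dropped from 7 of the 10 to 4 without control replicate 4, 5 or 6 or knockout replicate 3 or 5. Without both lungs that stood apart there were 9 DEGs among the 10 genes, 1430 over all genes, and 22 other glycolysis and 21 other HIF pathway genes at an unadjusted p up to 0.05. With library weights these were 2, 318 and, for HIF pathway genes, 14. The 75 DEGs over all genes became 36 with median centring, 39 with quantile normalization, and 27 when rescaled without immunoglobulin genes. With no filter, where 31629 genes were tested, there were 6. The cause of these changes was not tested. Median centring moved the median of all genes from 0.10 to -0.01 and that of the 10 genes from 1.05 to 0.94. With a replicate block, 45 DEGs were found over all genes, none of them among the 10. The replicate numbers did not pair the lungs: the correlation of same-numbered lungs ran from -0.292 to 0.046, and none correlated best with its own number. The block took the Hk2 and Eno1 shares to p = 0.125 (exact sign-flip test over 6 pairs). Summing both Aldoa rows, chosen after seeing the data, or summing near-identical copies altered no call. TPM carry no depth, so how far low counts limit these values is unknown.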
